A study of Mus musculus with 36 samples.

Results

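The genes described here are 9 genes of prostaglandin biology and the gene of annexin A1, read by RNA-seq in mouse embryonic fibroblasts (MEFs) whose glucocorticoid receptor (GR) was intact, mutated or absent. They were chosen by name, as 10 rows among the 55487 genes of the count table, and all 10 passed the filter on low counts. The phospholipase is Pla2g4a, the cyclooxygenases are Ptgs1 and Ptgs2, the terminal synthases are Ptges, Ptgis and Ptgds, the breakdown enzyme is Hpgd, the receptors are Ptger2 and Ptger4, and the last is Anxa1. MEFs are primary fibroblasts grown out of mid-gestation mouse embryos after the head and organs are removed. The study describes 3 cultures from different mice for each genotype. The sample titles do not name the mouse, and the GRwt/wt cells of the 2 runs differed in sex, so they were not the same 3 cultures. The cells carried GRwt/wt, the wild type, or 1 of 4 homozygous genotypes. GRD/D has a point mutation in the dimer interface of the DNA-binding domain, GRL/L has a point mutation in the ligand-binding domain, GRD+L/D+L has both, and GRko/ko lacks the receptor. The GRL and GRD+L alleles were made by genome editing and backcrossed to FVB/NJ mice. The labels give FVB/NJ for every library, while the study's methods describe the receptor-null colony on another strain. Each culture received solvent (vehicle) or 1 µM dexamethasone (Dex), a synthetic glucocorticoid, for 5 h. Run 1 held GRwt/wt, GRD/D, GRD+L/D+L and GRko/ko, and run 2 held GRwt/wt and GRL/L, with 3 libraries for each genotype and treatment of a run. GRD/D, GRD+L/D+L and GRko/ko were therefore compared with the same GRwt/wt libraries of run 1, and GRL/L with those of run 2.

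Prostaglandins are made when a phospholipase A2 frees arachidonic acid from membrane lipids, a cyclooxygenase turns it into prostaglandin H2, and terminal synthases turn that into prostaglandin E2, D2 or prostacyclin. Hpgd inactivates prostaglandins, and the E-type receptors encoded by Ptger2 and Ptger4 raise cyclic AMP in the cells that carry them. Glucocorticoids are known to repress Ptgs2, the inducible cyclooxygenase, and to raise annexin A1, a phospholipid-binding protein first described as an inhibitor of phospholipase A2.

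Promoter windows of RefSeq (GRCm38.p6, the same assembly as mm10) were found for 9 of the 10 genes, all but Ptgis. The stretches of Ptgs2, Pla2g4a, Ptger4 and Anxa1 are shown because these 4 genes passed the test in every genotype that has a receptor. Each runs 5′ to 3′ from 250 bases before the RefSeq start to the first 30 bases of the transcript, with motif matches in capitals. For Anxa1 that start lies 273 bases inside the gene span given below, and for the other genes shown it coincides with the start of the span. Ptgs2 lies at chr1:150099781-150100060 on the plus strand, Pla2g4a at chr1:149961261-149961540, Ptger4 at chr15:5244158-5244437 and Anxa1 at chr19:20390642-20390921, all of them on the minus strand.
Ptgs2: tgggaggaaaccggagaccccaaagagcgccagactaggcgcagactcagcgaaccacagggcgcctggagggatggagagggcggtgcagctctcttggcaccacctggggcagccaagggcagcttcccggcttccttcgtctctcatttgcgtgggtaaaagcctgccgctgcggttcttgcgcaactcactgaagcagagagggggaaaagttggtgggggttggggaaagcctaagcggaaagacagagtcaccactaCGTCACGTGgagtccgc
Pla2g4a: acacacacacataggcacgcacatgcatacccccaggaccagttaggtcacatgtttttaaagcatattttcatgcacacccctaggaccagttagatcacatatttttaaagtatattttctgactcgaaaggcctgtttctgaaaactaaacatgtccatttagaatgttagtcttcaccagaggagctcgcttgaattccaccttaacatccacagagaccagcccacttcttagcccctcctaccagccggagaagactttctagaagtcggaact
Ptger4: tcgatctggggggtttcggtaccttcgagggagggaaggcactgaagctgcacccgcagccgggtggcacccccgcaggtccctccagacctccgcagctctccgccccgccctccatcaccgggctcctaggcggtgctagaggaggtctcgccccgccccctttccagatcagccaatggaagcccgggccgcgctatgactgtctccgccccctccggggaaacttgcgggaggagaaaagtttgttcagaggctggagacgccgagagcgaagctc
Anxa1: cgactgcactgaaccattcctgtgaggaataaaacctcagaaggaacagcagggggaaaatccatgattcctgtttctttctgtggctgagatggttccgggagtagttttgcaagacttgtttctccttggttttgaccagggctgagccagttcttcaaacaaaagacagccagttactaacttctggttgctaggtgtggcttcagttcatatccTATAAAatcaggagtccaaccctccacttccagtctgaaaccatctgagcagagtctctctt
The capitals in Ptgs2 mark CGTCA, the reverse complement of the cyclic AMP core TGACG, and the overlapping E-box CACGTG, at bases 13 to 21 when the start site is counted as 0. The capitals in Anxa1 mark TATAAA, from base -32 to -27. Both strands were searched. TGACG was present in 20.8% of the 32851 mouse promoters of the same length, CACGTG in 7.15% and TATAAA in 13.6%. The hexamer AGAACA, which is 1 arm of the GR element, occurred in 19.0% of promoters, and it was present in the windows of Ptgs1, Ptges and Ptger2 and in another RefSeq window of Pla2g4a, but not in the 4 shown. The palindrome of AGAACA and TGTTCT with 3 bases between them was present in 3 promoters of the table and in none of the 9. The NF-kB motif was present in 0.411% of promoters, the inverted repeat element tied to GR repression in 1.72%, and neither in any of the 9.

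The libraries held 15280166 to 28662608 counts, with a median of 16579210.5 in run 1 (n = 24) and 24827607.5 in run 2 (n = 12). Levels are CPM, counts scaled to the same library total with TMM factors, and changes are log2 fold changes given by quasi-likelihood F tests in edgeR, with p-values adjusted by Benjamini-Hochberg over the 15489 genes tested. All adjusted p-values come from that test, errors of changes are standard errors (SE), errors of levels are SD with n = 3, and a gene is called changed at an adjusted p of at most 0.05. The targeted gene Nr3c1 had 15.9 to 18.0 CPM in the vehicle libraries of GRko/ko, against 67.2 to 74.3 in GRwt/wt of run 1, so reads of the gene remained. Its vehicle levels were 73.2 to 83.0 in GRD/D, 93.6 to 98.9 in GRD+L/D+L, 91.8 to 101 in GRwt/wt of run 2 and 101 to 105 in GRL/L. Nr3c1 was called higher in GRD+L/D+L and in GRwt/wt of run 2 than in GRwt/wt of run 1. The part of this in the Dex changes was not tested. The known GR target Fkbp5 rose in each genotype except GRko/ko, by 2.58 ± 0.07 in GRwt/wt of run 1, 1.07 ± 0.07 in GRD/D, 0.99 ± 0.07 in GRD+L/D+L, 3.70 ± 0.07 in GRwt/wt of run 2 and 3.29 ± 0.07 in GRL/L. Dusp1, another known target, rose by 0.34 ± 0.06 in GRwt/wt of run 1 and fell by 0.40 ± 0.06 in GRD/D. All 8 fibroblast markers were detected, with summed levels of 13714 to 29019 CPM. The 12 macrophage markers summed to 260.1 CPM in vehicle-treated GRwt/wt of run 1, 759 in GRD/D, 38.4 in GRD+L/D+L, 3244 in GRko/ko, 522 in GRwt/wt of run 2 and 961 in GRL/L, and the 6 smooth muscle markers to 9808 to 12566 CPM in run 1 libraries and 2320.4 to 3307 in run 2. With Dex, 5 macrophage markers were called lower and 2 higher in GRL/L, where 19.1% of all genes were called. In GRwt/wt of run 2, 2 were lower and 3 higher, where 31.6% were called. In run 1, 1 was higher in GRwt/wt (13.9%) and 1 lower in GRD/D (11.9%), and none was called in GRD+L/D+L or GRko/ko. Their part in the Dex changes was not tested. Endothelial markers summed to 9.37 to 23.5 CPM, epithelial markers to 0.857 to 49.6, mast cell markers to 0.324 to 2.45, and neural and glial markers to 113 to 839. Xist exceeded the Y-linked genes in all 6 libraries of GRwt/wt in run 1 and of GRD/D and in none of the other genotypes, so the sex of the cells differed from GRwt/wt of run 1 in GRD+L/D+L and GRko/ko and between the GRwt/wt cells of the runs, but not between GRD/D and GRwt/wt of run 1 or between the genotypes of run 2. In GRwt/wt of run 1 the Y-linked genes Ddx3y and Eif2s3y were nevertheless called higher with Dex, and the cause was not tested. Sex and genotype cannot be told apart in the contrasts of GRD+L/D+L and GRko/ko with GRwt/wt of run 1, nor sex and run between the GRwt/wt cells. If the GRko/ko cells were of the strain that the methods give, strain and genotype cannot be told apart there. In bulk RNA, fewer cells of a type and less RNA per cell cannot be told apart either.

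Dex lowered Ptgs2, Ptger4 and Pla2g4a and raised Anxa1 in every genotype that has a receptor. In GRwt/wt of run 1, 5 of the 10 genes were called, against 13.9% of all genes tested. Ptgs2, Ptger4, Pla2g4a and Ptgs1 fell and Anxa1 rose. In GRD/D 4 were called, with 11.9% of all genes, and in GRD+L/D+L 4 with 5% of all genes. In both, Ptgs2, Ptger4 and Pla2g4a fell and Anxa1 rose. In GRko/ko none of the 10 was called, with 0% of all genes called by edgeR and 1 gene by DESeq2, and none of the 10 had an unadjusted p under 0.05 where 859 genes did. In GRwt/wt of run 2, 6 were called against 31.6% of all genes, and in GRL/L 6 against 19.1%. In both, Ptgs2, Ptger4, Pla2g4a and Ptgs1 fell while Anxa1 and Hpgd rose. The median change of the 10 genes was -0.20 in GRwt/wt of run 1, -0.12 in GRD/D, -0.18 in GRD+L/D+L, 0.00 in GRko/ko, -0.01 in GRwt/wt of run 2 and -0.23 in GRL/L, and that of all genes lay between -0.01 and -0.00 in each. The vehicle and Dex libraries did not overlap for 6 of the 10 genes in GRwt/wt of run 1 (31.9% of all genes), GRD/D (23% of all genes) and GRD+L/D+L (23.2%), for 7 in GRwt/wt of run 2 (40.5%) and GRL/L (37.4%), and for 0 in GRko/ko (11.4%). With a log2 change of 1 or more in size also required, 1 gene, Ptgs2, was called in GRwt/wt of run 1 (2.01% of all genes) and in GRL/L (2.56%), and 4, Ptgs2, Ptger4, Pla2g4a and Hpgd, in GRwt/wt of run 2 (4.49%). None was called in GRD/D (0.981%), GRD+L/D+L (0.4%) or GRko/ko (0%) under that rule.

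**Figure D1:**
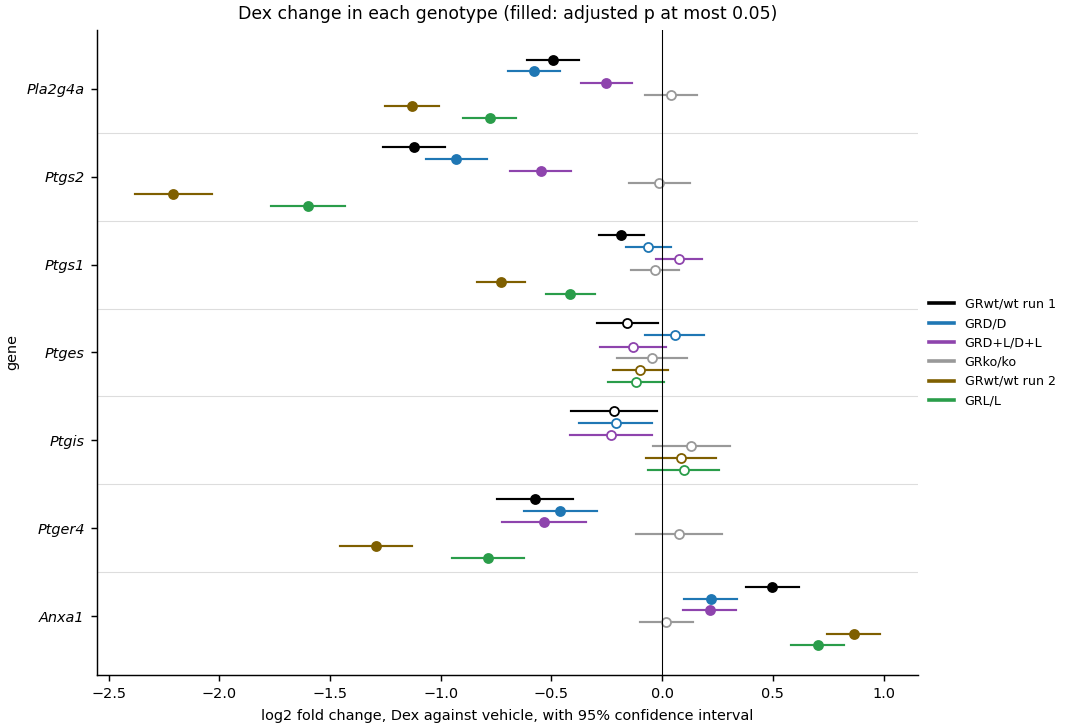
The log2 fold change of Dex against vehicle (horizontal axis) for 7 genes in each genotype, with 95% confidence intervals and filled points where the adjusted p is at most 0.05. Ptgs2 has the lowest points, from -2.21 in GRwt/wt of run 2 to -0.55 in GRD+L/D+L among the genotypes with a receptor, and the GRko/ko points lie near 0 for all 7 genes.

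Pla2g4a encodes cytosolic phospholipase A2 alpha, the enzyme that releases arachidonic acid (ENSMUSG00000056220, chr1:149829618-149961290, minus strand, GRCm38 as for all genes here). Its vehicle libraries of GRwt/wt in run 1 had 204, 195 and 203 CPM and its Dex libraries 148, 138 and 142. In GRD/D the levels were 236, 278 and 222 under vehicle against 173, 159.7 and 160.1 under Dex. In GRD+L/D+L they were 259, 264 and 258 under vehicle against 217, 219 and 220.1 under Dex. Every Dex library of these 3 genotypes lay below every vehicle library of its genotype. The GRko/ko vehicle libraries had 171, 167 and 168 CPM and the Dex libraries 171, 167 and 182, which overlapped. Run 2 GRwt/wt had 108, 110.3 and 104 under vehicle against 51.2, 48.0 and 48.1 under Dex. GRL/L had 106, 108 and 118 under vehicle against 60.6, 68.4 and 64.1 under Dex. Both run 2 genotypes were thus lower with Dex in every library. Pla2g4a fell by 0.49 ± 0.06 in GRwt/wt of run 1 (adjusted p = 1.81e-08), by 0.58 ± 0.06 in GRD/D (adjusted p = 8.17e-10) and by 0.25 ± 0.06 in GRD+L/D+L (adjusted p = 0.00262). It fell by 1.13 ± 0.06 in GRwt/wt of run 2 (adjusted p = 5.22e-18) and by 0.78 ± 0.06 in GRL/L (adjusted p = 2.42e-13).

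Ptgs2 encodes cyclooxygenase-2 (ENSMUSG00000032487, chr1:150100031-150108227, plus strand), and its start lies 138740 bases beyond the end of Pla2g4a. Its GRwt/wt libraries of run 1 had 1096, 1007 and 1109 CPM under vehicle against 507, 486 and 484 under Dex. GRD/D had 1179, 1274 and 1212 under vehicle against 689.6, 629.8 and 604 under Dex. GRD+L/D+L had 1332, 1299 and 1339.9 under vehicle against 896, 889 and 932 under Dex. The Dex libraries lay below the vehicle libraries in all 3, with the lowest Dex levels in GRwt/wt and the highest in GRD+L/D+L, without overlap between these genotypes. GRko/ko had 1136, 1016 and 999 under vehicle against 1111, 1029.6 and 980.2 under Dex, and these overlapped. In run 2 the gene was far less abundant: GRwt/wt had 59.7, 59.0 and 68.7 under vehicle against 13.5, 12.9 and 14.1 under Dex. GRL/L had 54.8, 60.1 and 62.2 under vehicle against 22.8, 16.1 and 19.3 under Dex. The vehicle levels of GRL/L and GRwt/wt overlapped, and every Dex library of GRL/L was higher than every Dex library of GRwt/wt. Ptgs2 fell by 1.12 ± 0.07 in GRwt/wt of run 1 (adjusted p = 1.12e-15), to 0.460 of its vehicle level. It fell by 0.93 ± 0.07 in GRD/D (adjusted p = 6.25e-13) and by 0.55 ± 0.07 in GRD+L/D+L (adjusted p = 2.02e-07), to 0.525 and 0.684 of vehicle. It fell by 2.21 ± 0.08 in GRwt/wt of run 2 (adjusted p = 5.94e-22) and by 1.60 ± 0.08 in GRL/L (adjusted p = 4.90e-18), to 0.216 and 0.330.

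Ptgs1, the constitutive cyclooxygenase (ENSMUSG00000047250, chr2:36230426-36252272, plus strand), was also lower under Dex in the GRwt/wt cells. GRwt/wt of run 1 had 162, 168 and 170.4 CPM under vehicle against 147, 149.6 and 143 under Dex. GRD/D had 163, 164 and 173 under vehicle against 162, 160.1 and 157 under Dex, and GRD+L/D+L had 134, 134 and 137 under vehicle against 139.8, 139 and 148 under Dex. The Dex libraries were lower than vehicle in GRwt/wt and, by a narrow margin, in GRD/D, and higher in GRD+L/D+L. GRko/ko had 85.5, 84.0 and 80.9 under vehicle against 89.2, 81.7 and 73.9 under Dex, which overlapped. GRwt/wt of run 2 had 63.0, 60.1 and 62.7 under vehicle against 38.7, 36.2 and 37.2 under Dex, and GRL/L had 48.1, 47.1 and 50.8 under vehicle against 39.3, 36.3 and 33.9 under Dex. Both run 2 genotypes were lower with Dex in every library, and their Dex levels overlapped each other. Ptgs1 fell by 0.18 ± 0.05 in GRwt/wt of run 1 (adjusted p = 0.00847), by 0.73 ± 0.05 in GRwt/wt of run 2 (adjusted p = 7.76e-14) and by 0.41 ± 0.05 in GRL/L (adjusted p = 1.48e-07). The change was -0.06 ± 0.05 in GRD/D (adjusted p = 0.468) and 0.08 ± 0.05 in GRD+L/D+L (adjusted p = 0.557), neither of them called. Its exons share 148 bases with an antisense gene model. The call in GRwt/wt of run 1 was lost without Dex replicate 3 (adjusted p = 0.0514).

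**Figure D2:**
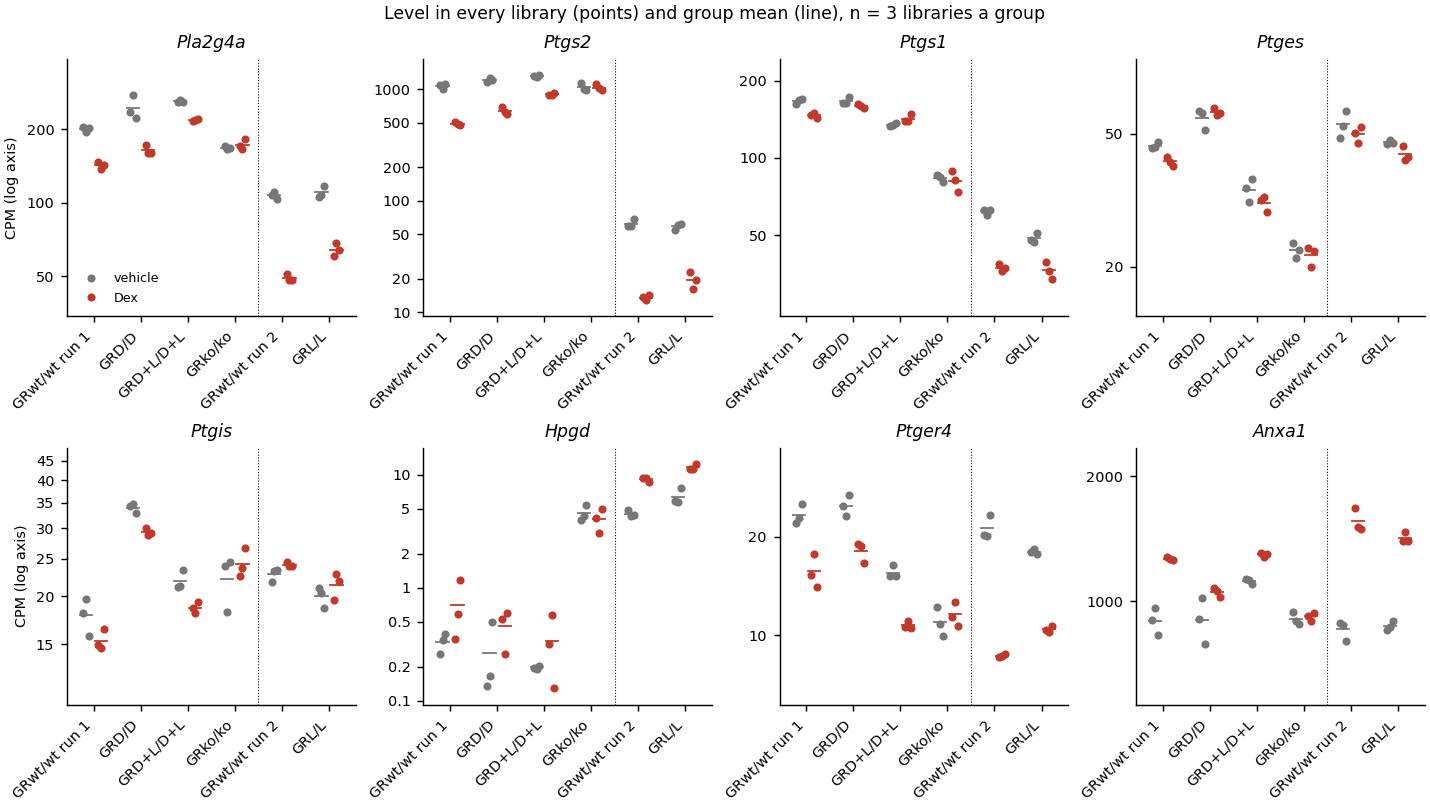
The level of 8 genes in every library (points, CPM on a logarithmic axis that differs between panels) with the group mean (line), vehicle in grey and Dex in red, with run 2 to the right of the dotted line. Ptgs2 spans 484 to 1339.9 CPM in run 1 and 12.9 to 68.7 in run 2, while the vehicle levels of Anxa1 lie between 789.6 and 1129 CPM throughout.

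By edgeR no Dex change of the terminal synthases Ptges, Ptgis and Ptgds was called in any genotype. Ptges, the inducible prostaglandin E synthase (ENSMUSG00000050737, chr2:30889471-30929863, minus strand), changed by -0.16 ± 0.07 in GRwt/wt of run 1 (adjusted p = 0.126), with 45.5, 45.6 and 47.4 CPM under vehicle against 42.7, 41.2 and 40.2 under Dex. The libraries did not overlap, yet the change missed the threshold, which it passed with the GRwt/wt cells of both runs pooled (-0.13, adjusted p = 0.0295). Elsewhere its change lay between -0.13 in GRD+L/D+L and 0.06 in GRD/D. Ptgis, the prostacyclin synthase (ENSMUSG00000017969, chr2:167191805-167240604, minus strand), had 34.3, 34.7 and 32.9 CPM under vehicle against 30.1, 28.8 and 29.1 under Dex in GRD/D, a change of -0.21 ± 0.08 (adjusted p = 0.0823, or 0.0469 without the GRko/ko libraries in the fit). Its change in the other genotypes ranged from -0.23 in GRD+L/D+L to 0.13 in GRko/ko. Ptgds, which makes prostaglandin D2 (ENSMUSG00000015090, chr2:25466709-25470046, minus strand), had 0 counts in 17 of the 24 libraries of run 1 and at most 13 in the others. It had 52 to 161 counts in run 2, where its Dex change was 0.15 ± 0.29 in GRwt/wt and -0.35 ± 0.28 in GRL/L, neither of them called. A count of 0 allows up to 3 counts in a library.

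Hpgd, the 15-hydroxyprostaglandin dehydrogenase that starts prostaglandin breakdown (ENSMUSG00000031613, chr8:56294585-56321043, plus strand), rose with Dex in run 2. GRwt/wt of run 2 had 4.83, 4.30 and 4.38 CPM under vehicle against 9.42, 9.39 and 8.61 under Dex. GRL/L had 5.88, 5.79 and 7.56 under vehicle against 11.3, 11.2 and 12.4 under Dex. All Dex libraries of run 2 exceeded all vehicle libraries of run 2. Hpgd rose by 1.02 ± 0.14 in GRwt/wt of run 2 (adjusted p = 4.67e-07) and by 0.86 ± 0.13 in GRL/L (adjusted p = 3.69e-06). In run 1 the GRwt/wt, GRD/D and GRD+L/D+L libraries held 2 to 19 counts of Hpgd each, and the vehicle and Dex libraries overlapped. The estimates there were 1.07 ± 0.49 in GRwt/wt (adjusted p = 0.166), 0.73 ± 0.56 in GRD/D (adjusted p = 0.450) and 0.77 ± 0.66 in GRD+L/D+L (adjusted p = 0.709). None of them was called at this depth. In GRko/ko, with 50 to 86 counts a library, the change was -0.16 ± 0.19 (adjusted p = 0.967).

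Of the receptors, Ptger4 encodes the E-type receptor EP4 (ENSMUSG00000039942, chr15:5206661-5244187, minus strand). It had 22.0, 22.9 and 25.2 CPM under vehicle against 15.3, 17.8 and 14.1 under Dex in GRwt/wt of run 1. GRD/D had 24.8, 23.2 and 26.8 under vehicle against 19.0, 18.7 and 16.6 under Dex. GRD+L/D+L had 15.2, 16.4 and 15.2 under vehicle against 10.6, 11.1 and 10.5 under Dex. All Dex libraries lay below the vehicle libraries of their genotype, with the lowest levels in GRD+L/D+L. GRko/ko had 12.2, 10.8 and 9.92 under vehicle against 11.4, 12.7 and 10.7 under Dex, and these overlapped. GRwt/wt of run 2 had 20.4, 20.1 and 23.3 under vehicle against 8.59, 8.67 and 8.76 under Dex. GRL/L had 18.0, 18.3 and 17.7 under vehicle against 10.4, 10.2 and 10.7 under Dex. With vehicle every GRL/L library was below every GRwt/wt library of its run, and with Dex every one was above. Ptger4 fell by 0.58 ± 0.08 in GRwt/wt of run 1 (adjusted p = 1.46e-06), by 0.46 ± 0.08 in GRD/D (adjusted p = 7.13e-05) and by 0.53 ± 0.09 in GRD+L/D+L (adjusted p = 0.000114). It fell by 1.29 ± 0.08 in GRwt/wt of run 2 (adjusted p = 6.50e-16) and by 0.79 ± 0.08 in GRL/L (adjusted p = 4.06e-10). Exons of Ptger4 share 1097 of 6648 bases with genes on the other strand, of which Ttc33 changed by -0.12 ± 0.11 in GRwt/wt of run 1 and 0.01 ± 0.09 in run 2, neither of them called. Ptger2, which encodes EP2 (ENSMUSG00000037759, chr14:44988195-45003820, plus strand), had 0 to 33 counts a library, and no Dex change of it was called in any genotype.

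Anxa1 (ENSMUSG00000024659, chr19:20373428-20390944, minus strand) was the only 1 of the 10 genes to be called higher in every genotype with a receptor. Its GRwt/wt libraries of run 1 had 901, 962 and 828 CPM under vehicle against 1275, 1266 and 1257 under Dex. GRD/D had 905, 1017 and 789.6 under vehicle against 1076, 1057 and 1024 under Dex. GRD+L/D+L had 1129, 1126 and 1099 under vehicle against 1308, 1280.3 and 1303 under Dex. The Dex libraries exceeded the vehicle libraries in all 3, by a narrow margin in GRD/D, whose vehicle libraries spread widely. GRko/ko had 943, 897 and 883 under vehicle against 923, 897 and 940.1 under Dex, and these overlapped. GRwt/wt of run 2 had 888, 879.6 and 801 under vehicle against 1675, 1508 and 1498 under Dex. GRL/L had 853, 868 and 898 under vehicle against 1398, 1469 and 1395 under Dex. Every Dex library of GRwt/wt in run 2 exceeded those of GRL/L, and the vehicle levels overlapped. Anxa1 rose by 0.50 ± 0.06 in GRwt/wt of run 1 (adjusted p = 2.52e-08), by 0.22 ± 0.06 in GRD/D (adjusted p = 0.00982) and by 0.21 ± 0.06 in GRD+L/D+L (adjusted p = 0.0201). It rose by 0.87 ± 0.06 in GRwt/wt of run 2 (adjusted p = 8.87e-15) and by 0.70 ± 0.06 in GRL/L (adjusted p = 4.60e-12). The call in GRD/D was lost without vehicle replicate 3 (adjusted p = 0.113), and that in GRD+L/D+L without any 1 of its 6 libraries (adjusted p from 0.0520 to 0.0927).

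Whether a mutation altered the Dex change was tested as the difference of the log2 fold changes within a run. For GRD/D none of the 10 genes was called by edgeR, with 3.29% of all genes called. 2 of them had an unadjusted p under 0.05, and DESeq2 called 1, Anxa1. The difference in Anxa1 was -0.28 ± 0.08 (adjusted p = 0.0540) and was called without vehicle replicate 3 of GRD/D (adjusted p = 0.000997) or vehicle replicate 2 of GRwt/wt (adjusted p = 0.0209) and with a replicate block (adjusted p = 0.0366). The difference in Ptgs2 was 0.19 ± 0.09 (adjusted p = 0.431, 95% interval -0.00 to 0.39). For GRD+L/D+L, 3 were called with 3.23% of all genes. The fall of Ptgs2 was smaller than in GRwt/wt, by 0.57 ± 0.09 (adjusted p = 7.54e-05), the change of Ptgs1 was higher by 0.26 ± 0.07 (adjusted p = 0.0275), and the rise of Anxa1 was smaller, with a difference of -0.28 ± 0.08 (adjusted p = 0.0484). The call on Anxa1 was lost without any 1 of the 12 libraries compared other than vehicle replicate 2 of GRwt/wt (adjusted p from 0.0672 to 0.182), and without the GRko/ko libraries in the fit (adjusted p = 0.0614). The call on Ptgs1 was lost without any 1 of 7 libraries, Dex replicate 3 and vehicle replicates 1 and 2 of GRD+L/D+L and Dex replicates 1 and 3 and vehicle replicates 2 and 3 of GRwt/wt (adjusted p from 0.0552 to 0.114). The difference in Pla2g4a, 0.24 ± 0.08 (adjusted p = 0.115, 95% interval 0.07 to 0.40), was not called. It was called with the GRwt/wt cells of both runs pooled (adjusted p = 0.00140). Ptger4 fell in both, and its difference was 0.04 ± 0.12 (95% interval -0.22 to 0.30).

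For GRko/ko, 4 differences were called with 8.48% of all genes, in Ptgs2 (1.11 ± 0.09, adjusted p = 3.30e-11), Ptger4 (0.65 ± 0.13, adjusted p = 0.000322), Pla2g4a (0.53 ± 0.08, adjusted p = 7.13e-06) and Anxa1 (-0.48 ± 0.08, adjusted p = 6.54e-05). That in Ptgis (0.35 ± 0.13, adjusted p = 0.0877) was called without vehicle replicate 3 of GRko/ko or of GRwt/wt (adjusted p of 0.0373 and 0.0314), and that in Ptgs1 (0.15 ± 0.07, adjusted p = 0.224) without Dex replicate 3 of GRko/ko (adjusted p = 0.0491). For GRL/L, 4 were called with 1.85% of all genes, and each was a smaller fall than in GRwt/wt of run 2. They were Ptgs2 (0.61 ± 0.12, adjusted p = 0.00147), Ptger4 (0.51 ± 0.11, adjusted p = 0.00871), Pla2g4a (0.35 ± 0.08, adjusted p = 0.0152) and Ptgs1 (0.31 ± 0.08, adjusted p = 0.0186). The call on Pla2g4a was lost without Dex replicate 2 or vehicle replicate 1 or 2 of GRL/L or vehicle replicate 5 of GRwt/wt (adjusted p from 0.0532 to 0.0704). That on Ptgs1 was lost without Dex replicate 1 or vehicle replicate 1 or 2 of GRL/L or Dex replicate 5 of GRwt/wt (adjusted p from 0.0526 to 0.103). With run as a covariate and the GRwt/wt cells of both runs pooled into 1 control, the difference in Ptgs2 was -0.04 and none of the 10 was called for GRL/L, while 4 were for GRD/D (Ptgs1, Ptgs2, Ptger4 and Anxa1). Anxa1 and Hpgd were not called in GRL/L, with differences of -0.16 ± 0.08 (95% interval -0.33 to 0.01) and -0.16 ± 0.20 (95% interval -0.56 to 0.25). Between GRD+L/D+L and GRD/D none of the 10 was called by edgeR, with 0.0775% of all genes called. DESeq2 called Pla2g4a and Ptgs2, the 2 with an unadjusted p under 0.05, whose falls were smaller in GRD+L/D+L by 0.33 ± 0.08 (adjusted p = 0.0974, or 0.0241 without vehicle replicate 3 of GRD/D) and 0.38 ± 0.09 (adjusted p = 0.103).

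**Figure D3:**
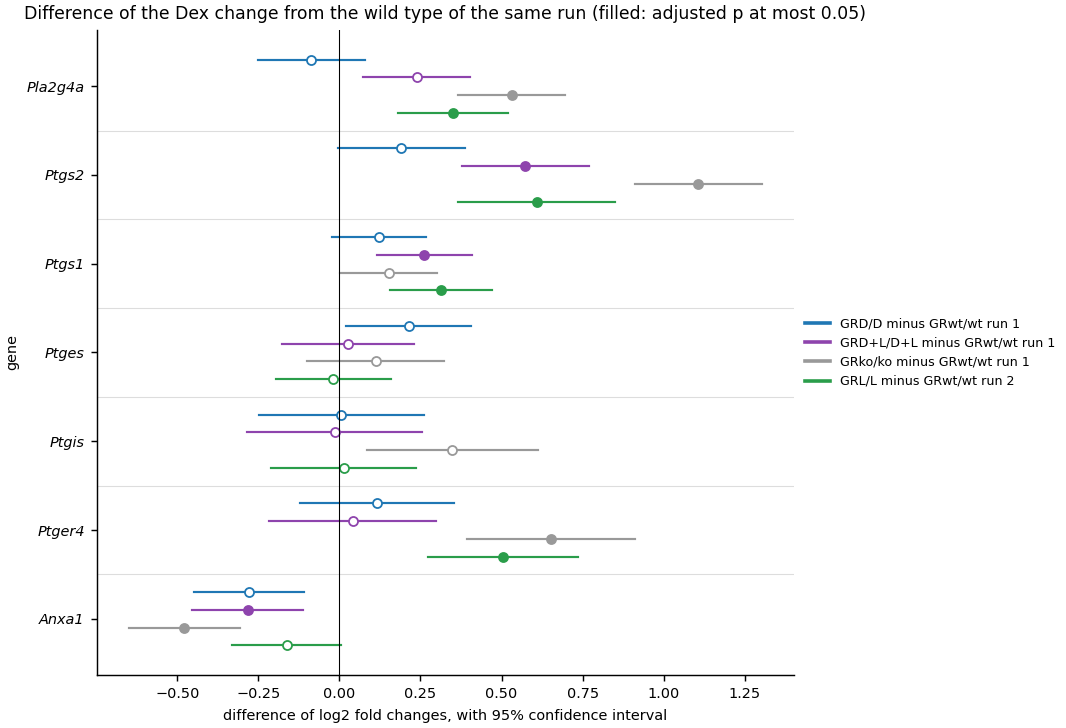
The Dex change of each mutant minus that of GRwt/wt in the same run (horizontal axis, difference of log2 fold changes with 95% confidence intervals, filled where the adjusted p is at most 0.05). The differences of Ptgs2 lie above 0, up to 1.11 in GRko/ko, and those of Anxa1 lie below 0, down to -0.48.

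Expressed as a share of the GRwt/wt log2 change, GRD/D had 82.9% ± 7.82 (SE) of the fall of Ptgs2, 80.0% ± 18.0 of that of Ptger4 and 118% ± 17.8 of that of Pla2g4a, beside 44.1% ± 12.8 of the rise of Anxa1. The share of the smaller fall of Ptgs1 was 33.9% ± 28.3. The rises of the GR targets Tsc22d3 and Fkbp5 in GRD/D were 28.1% ± 4.17 and 41.5% ± 2.96 of those in GRwt/wt, and that of Per1 was 97.1% ± 7.12. For Dusp1, which fell in GRD/D, the share was -119% ± 27.7. In GRD+L/D+L the shares were 48.8% ± 6.65 for Ptgs2, 92.8% ± 20.9 for Ptger4, 51.5% ± 12.8 for Pla2g4a and 43.1% ± 12.8 for Anxa1. That of Ptgs1 was -41.8% ± 29.4, its change there being in the other direction and not called. The GR targets had 25.8% ± 4.39 (Tsc22d3), 38.5% ± 3.01 (Fkbp5), 74.4% ± 6.40 (Per1) and -91.5% ± 24.7 (Dusp1). In GRL/L the shares were 72.5% ± 4.57 for Ptgs2, 60.9% ± 7.11 for Ptger4, 69.0% ± 6.26 for Pla2g4a, 81.2% ± 8.68 for Anxa1 and 84.7% ± 17.6 for Hpgd, beside 82.2% ± 2.30 for Tsc22d3. Ptgs1 had 57.0% ± 8.46, Fkbp5 89.1% ± 2.54, Per1 90.2% ± 6.26 and Dusp1 58.3% ± 5.50. Differences between genes in these shares were not tested.

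Without Dex, several of the genes already differed between genotypes. In GRD/D 3 of the 10 were called against 9.55% of all genes, and all 3 were higher than in GRwt/wt. They were Ptgis (0.93 ± 0.09, adjusted p = 4.85e-10), Ptges (0.28 ± 0.07, adjusted p = 0.00356) and Pla2g4a (0.29 ± 0.06, adjusted p = 0.000319). Vehicle-treated GRD/D had 32.9 to 34.7 CPM of Ptgis, above the 15.8 to 19.7 CPM of GRwt/wt in run 1. All 12 macrophage markers were also higher in GRD/D, with a median difference of 1.51, and their part was not tested. In GRD+L/D+L 7 were called against 29.9% of all genes. Pla2g4a (0.38 ± 0.06), Anxa1 (0.32 ± 0.06), Ptgs2 (0.31 ± 0.07) and Ptgis (0.30 ± 0.09) were higher, and Ptger4 (-0.59 ± 0.08), Ptges (-0.44 ± 0.07) and Ptgs1 (-0.30 ± 0.05) were lower, with adjusted p from 7.79e-07 to 0.0109. The call on Ptgis was lost without vehicle replicate 3 of either genotype (adjusted p of 0.0651 and 0.106). In the same contrast all 12 macrophage markers were lower, with a median difference of -3.06, and 6 of 8 fibroblast markers were lower (Col1a1, Col1a2, Pdgfra, Pdgfrb, Dcn and Lum) and none higher, with a median of -0.53 and sums of 14568 to 14838 CPM against 19410 to 21336. The part of these markers in the differences was not tested.

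In GRko/ko 7 of the 10 were called against 45.7% of all genes. Hpgd was higher by 3.76 ± 0.33 (adjusted p = 2.96e-12), with 3.94, 4.31 and 5.44 CPM where GRwt/wt of run 1 had 0.260, 0.343 and 0.389. Ptger2 was higher by 2.42 ± 0.44 (adjusted p = 2.12e-05), at 16 to 28 counts a library against 3 to 5, and Ptgis by 0.31 ± 0.09 (adjusted p = 0.00407, or 0.0589 without vehicle replicate 3 of GRwt/wt). Ptger4 (-1.09 ± 0.09), Ptges (-1.04 ± 0.07), Ptgs1 (to 0.501 of GRwt/wt) and Pla2g4a (-0.25 ± 0.06) were lower, with adjusted p from 1.19e-18 to 0.000371. Ptgs2 (-0.03 ± 0.07, 95% interval -0.17 to 0.11) and Anxa1 (0.02 ± 0.06, 95% interval -0.10 to 0.14) were not called. Macrophage markers and the sex of the cells also differed in GRko/ko, with all 12 markers higher and a sum of 3244 CPM against 260.1. By the study's methods, though not by the labels, the strain differed too. The part of markers, sex and strain in these differences was not tested. In GRL/L 4 were called against 11.3% of all genes, Hpgd being higher (0.51 ± 0.15) and Ptgs1 (-0.35 ± 0.05), Ptger4 (-0.24 ± 0.07) and Ptges (-0.18 ± 0.06) lower, with adjusted p from 7.49e-06 to 0.0469. The call on Hpgd was lost without vehicle replicate 3 of GRL/L or 5 or 6 of GRwt/wt (adjusted p up to 0.159), that on Ptger4 without vehicle replicate 1 or 3 of GRL/L or 6 of GRwt/wt (up to 0.193), and that on Ptges without any vehicle library of GRL/L or replicate 5 or 6 of GRwt/wt (up to 0.350). All 12 macrophage markers were higher in GRL/L, with a median difference of 1.00, and their part was not tested.

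**Figure D4:**
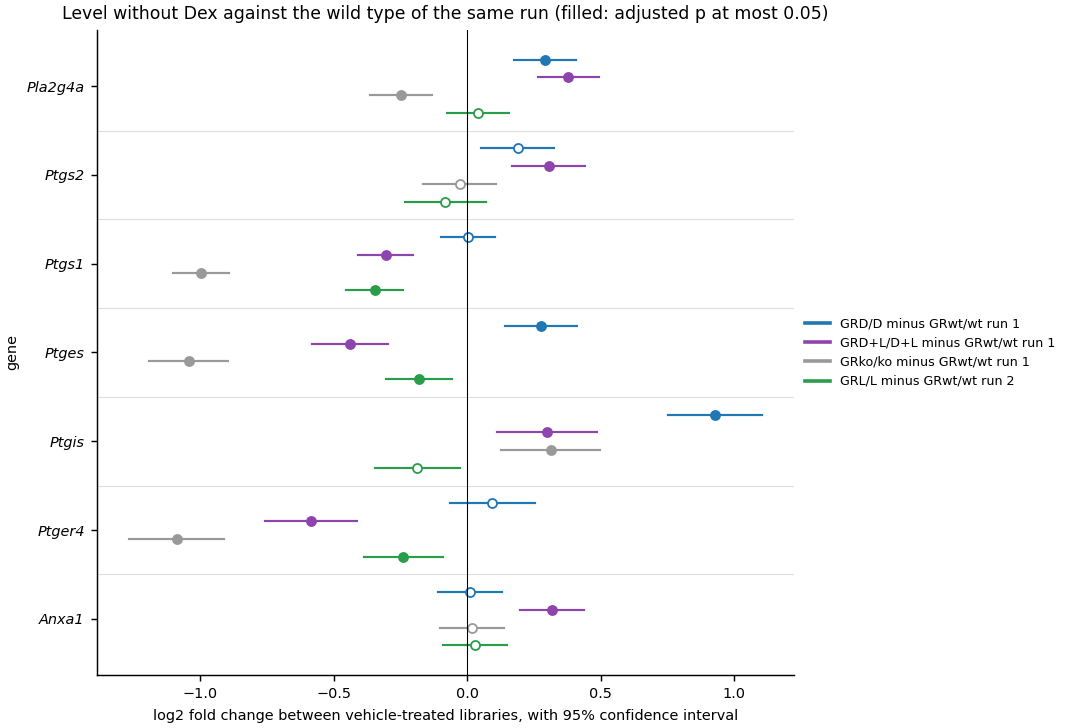
The vehicle level of each mutant relative to vehicle-treated GRwt/wt of the same run (horizontal axis, log2 fold change with 95% confidence intervals, filled where the adjusted p is at most 0.05) for 7 genes. GRko/ko lies near -1 for Ptgs1, Ptges and Ptger4, and GRD/D lies at 0.93 for Ptgis.

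The GRwt/wt cells of the 2 runs also differed from each other without Dex. This comparison of vehicle levels was added after the data were seen. It called 8 of the 10 genes, with 72.4% of all genes. Mean Ptgs2 was 1071 ± 55.4 CPM in run 1 and 62.5 ± 5.38 in run 2, 17.1-fold higher in run 1 (log2 difference of run 2 from run 1 -4.10 ± 0.08, adjusted p = 9.46e-32). Ptgs1 (-1.43 ± 0.05) and Pla2g4a (-0.90 ± 0.06) were also lower in run 2. Hpgd (3.75 ± 0.31), Ptger2 (1.76 ± 0.46), Ptgis (0.35 ± 0.09) and Ptges (0.21 ± 0.06) were higher in run 2, the last not without vehicle replicate 6 of run 2 (adjusted p = 0.0671). Ptgds was at least 14.3-fold higher, taking 3 counts a library as the floor for run 1, where its 3 vehicle libraries had 0. By edgeR Ptger4 (-0.14 ± 0.08, adjusted p = 0.0988) and Anxa1 (-0.07 ± 0.06) were not called, but Ptger4 was by DESeq2 (adjusted p = 0.0333), with its size factors (0.0244), without the GRko/ko libraries (0.0229) and without vehicle replicate 6 of run 2 (0.0199). The Dex change of GRwt/wt differed between the runs in 5 of the 10 genes, with 7.09% of all genes called. The falls of Ptgs2 (-1.09 ± 0.11), Ptger4 (-0.72 ± 0.12), Pla2g4a (-0.64 ± 0.08) and Ptgs1 (-0.54 ± 0.07) and the rise of Anxa1 (0.37 ± 0.08) were all larger in run 2, with adjusted p from 2.34e-09 to 0.00268.

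Per kilobase of exon, Anxa1 had the highest vehicle level of the 10 genes in each genotype. In GRwt/wt of run 1 it had 308 ± 23.0 CPM per kilobase, followed by Ptgs2 (234 ± 12.1), Ptgs1 (42.9 ± 1.09), Pla2g4a (31.4 ± 0.801), Ptges (11.7 ± 0.270), Ptgis (6.96 ± 0.777) and Ptger4 (3.52 ± 0.252), with Hpgd, Ptger2 and Ptgds below 0.20. Neighbours in this order differed by more than their SD. In GRwt/wt of run 2 Anxa1 had 294 ± 16.5, and Pla2g4a (16.8 ± 0.513), Ptgs1 (15.9 ± 0.411), Ptgs2 (13.6 ± 1.17) and Ptges (13.6 ± 1.29) followed. The levels of Ptgs2 and Ptges did not differ beyond their SD there.

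The wider pathway was read from lists of genes drawn up by function, which include the 10 genes above. Their counts are read against the shares of all genes called, 13.9% in GRwt/wt of run 1, 31.6% in run 2 and 19.1% in GRL/L. Of 9 phospholipase A2 genes tested, Dex raised 1 and lowered 1 in GRwt/wt of run 1, and raised 2 and lowered 3 in run 2. Pla2g15, a lysosomal phospholipase, rose by 0.45 ± 0.05 in GRwt/wt of run 1, 0.65 ± 0.05 in run 2 and 0.46 ± 0.05 in GRL/L, and its change was 0.10 ± 0.05 in GRD/D and 0.15 ± 0.05 in GRD+L/D+L, neither of them called. Pla2g7, the platelet-activating factor acetylhydrolase, fell by 0.44 ± 0.07 in GRwt/wt of run 2 and 0.33 ± 0.07 in GRL/L. Of 12 prostanoid synthesis genes, 1 rose and 3 fell in GRwt/wt of either run, which in run 2 is near the share of all genes. Besides Ptgs1 and Ptgs2, the gene that fell was Ptges3 in run 1 and Hpgds in run 2, and Hpgds also fell in GRL/L. The riser was Akr1b3, an aldose reductase with prostaglandin F synthase activity. It rose by 0.22 ± 0.05 in GRwt/wt of run 1, 0.68 ± 0.05 in GRD/D, 0.36 ± 0.05 in GRD+L/D+L, 0.27 ± 0.05 in GRwt/wt of run 2 and 0.25 ± 0.05 in GRL/L. Its rise was larger in GRD/D than in GRwt/wt, by 0.47 ± 0.07 (adjusted p = 3.73e-05).

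Of 6 breakdown and transport genes, 0 rose and 1 fell in GRwt/wt of run 1, and 2 rose and 2 fell in run 2. Slco2a1, the prostaglandin transporter, fell by 0.32 ± 0.10 in GRwt/wt of run 1, 0.51 ± 0.08 in run 2 and 0.29 ± 0.09 in GRL/L. Of 7 receptor genes tested, 0 rose and 2 fell in GRwt/wt of run 1, and 1 rose and 3 fell in run 2. Ptgir, the prostacyclin receptor, fell by 1.23 ± 0.23 in GRwt/wt of run 1, 1.33 ± 0.28 in GRD+L/D+L, 0.61 ± 0.12 in GRwt/wt of run 2 and 0.39 ± 0.12 in GRL/L. Ptger3, the E-type receptor EP3, rose by 1.89 ± 0.25 in GRwt/wt of run 2 and by 1.34 ± 0.26 in GRL/L, from 1.10 and 0.998 CPM with vehicle. Of 12 annexins and annexin partners, 4 rose in GRwt/wt of run 1, 6 in run 2 and 4 in GRL/L, and none fell, where 13.9%, 31.6% and 19.1% of all genes were called in either direction. S100a10, the partner of annexin A2, rose by 0.43 ± 0.08 in GRwt/wt of run 1, 0.92 ± 0.08 in run 2 and 0.62 ± 0.08 in GRL/L. In GRD/D and GRD+L/D+L Anxa1 was the only 1 of these 12 called, where 11.9% and 5% of all genes were called. Of 8 leukotriene and lipoxygenase genes, edgeR called none in either GRwt/wt, where 1 gene in run 1 and 0 in run 2 had an unadjusted p under 0.05. Alox12 rose in GRD+L/D+L, from 0.109 to 0.683 CPM, and Cysltr1, a leukotriene receptor, fell in GRL/L by 1.42 on the log2 scale. In GRko/ko edgeR called 0% of all genes, and so no gene of any of these lists.

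**Figure D5:**
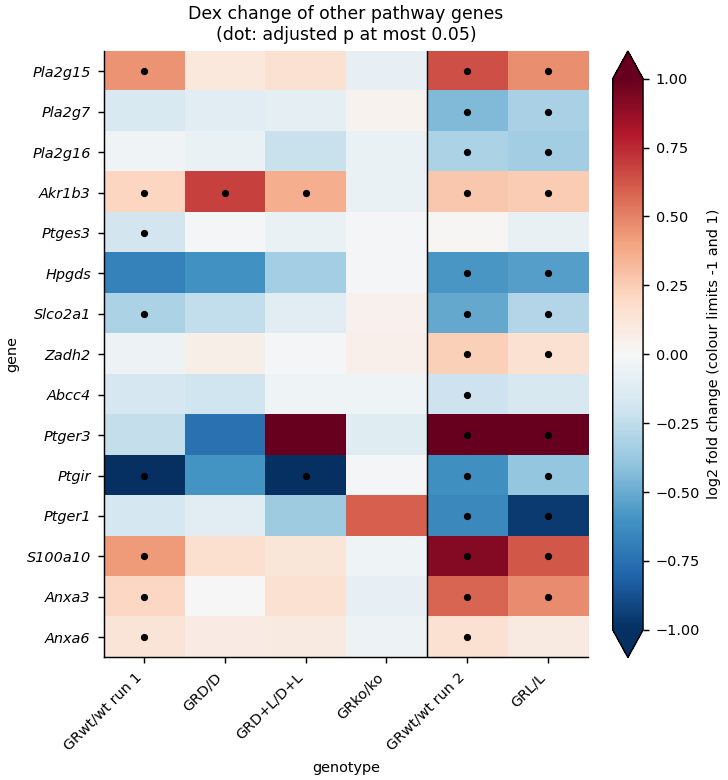
The Dex change (colour, log2 fold change cut off at -1 and 1) of 15 further pathway genes in each genotype, with a dot where the adjusted p is at most 0.05 and run 2 to the right of the line. Akr1b3 is dotted in all 5 columns with a receptor, Pla2g15 and S100a10 in GRwt/wt of both runs and GRL/L, and the GRko/ko column has no dot.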

How the data were processed

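RNA of primary MEF cultures was sequenced from TruSeq libraries on an Illumina sequencer. The authors mapped reads to mm10 and deposited whole-number counts of uniquely mapped reads per gene for 36 libraries in 1 table. The submitters' processing notes name HISAT2 (2.1.0), featureCounts (2.0.0), FastQC and DESeq2. The annotation version and the strand setting are not given in the sources used here. Groups of 3 libraries came from the sample labels. The counts of libraries in the same group differed by 1.38 to 5.95 times the sampling noise over 36 pairs, so no pair differed by sampling noise alone. This does not show whether the libraries of a group came from separate cultures.

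Counts were tested with edgeR (4.0.16, R 4.3.3): TMM scaling, the default filter on low counts over 12 groups (15489 of 55487 genes, 99.93% of counts), 1 term for each group with 24 residual degrees of freedom, and the quasi-likelihood F test with Benjamini-Hochberg adjustment. The study's further limit of an absolute log2 fold change of 1 was a second call rule. SEs were derived from the F statistic and are approximate. Symbols matched for 55141 genes. Precision was set by 3 libraries a group, and for Hpgd, Ptger2 and Ptgds by counts of a few reads. The common spread between libraries of a group was a coefficient of variation of 0.0513. By Xist against the Y-linked genes, the 6 libraries of each genotype in a run were alike in sex. The labels do not show whether the 3 libraries of a group came from different embryos. If they shared a culture, SEs and p-values between genotypes or runs would measure only the spread within a culture. The procedure was tested on simulated data.

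The 10 genes and the gene lists were chosen with earlier results of these data known. All 10 genes are named, with values in every library for those called in any Dex change. From the wider lists, genes are named from those with the smallest adjusted p in GRwt/wt, and Alox12 and Cysltr1 were named after their values were seen. Alternatives were DESeq2 (1.42.0) and its size factors, other count filters, libraries of 1 run only, the study's formula, a replicate block and leaving out each library. The comparison of vehicle levels between runs and the fit without GRko/ko libraries were added after the data were seen. Replicate numbers do not mark a shared culture in the labels. Same-numbered libraries deviated together in every pair for vehicle and Dex in GRko/ko (correlations of 0.254 to 0.485, from -0.471 to 0.269 elsewhere) and for vehicle in GRD/D and GRwt/wt of run 1 (0.254 to 0.670), where a replicate block left the calls on the 10 genes as they were. The main fit had no block. Figures were drawn with matplotlib 3.10.9.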

Additional observations from a re-analysis of the deposited data

Results flagged for a closer look

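The Dex change of 5 of the 10 genes differed between genotypes or runs by the test of the difference itself (edgeR's quasi-likelihood test, difference of log2 fold changes ± SE). Against GRwt/wt of run 1, GRD+L/D+L differed in Ptgs2 (0.57 ± 0.09), Ptgs1 (0.26 ± 0.07) and Anxa1 (-0.28 ± 0.08), with 3.23% of all genes called. The calls on Anxa1 and Ptgs1 were lost without any 1 of 11 and of 7 libraries. GRko/ko differed from the same libraries in Ptgs2 (1.11 ± 0.09), Ptger4 (0.65 ± 0.13), Pla2g4a (0.53 ± 0.08) and Anxa1 (-0.48 ± 0.08), with 8.48% of all genes called. Against GRwt/wt of run 2, GRL/L differed in Ptgs2 (0.61 ± 0.12), Ptger4 (0.51 ± 0.11), Pla2g4a (0.35 ± 0.08) and Ptgs1 (0.31 ± 0.08), with 1.85% of all genes called. The calls on Pla2g4a and Ptgs1 were each lost without any 1 of 4 libraries. With the study's formula none of the 10 was called for GRL/L, and the difference in Ptgs2 was -0.044. The GRwt/wt cells of run 2 differed from those of run 1 in Ptgs2 (-1.09 ± 0.11), Ptger4 (-0.72 ± 0.12), Pla2g4a (-0.64 ± 0.08), Ptgs1 (-0.54 ± 0.07) and Anxa1 (0.37 ± 0.08), with 7.09% of all genes called. Every sign among the differences called in the main fit is that of a smaller change in the mutant, or of a larger change in run 2.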

How the results depend on the processing

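Calls were limited by counts for Hpgd, Ptger2 and Ptgds in run 1, and elsewhere by the spread of 3 libraries. For 67 called values of the genes other than Ptgds and Ptger2, there were 489 alternatives other than leaving out a library. They left 471 with the same direction and call, 17 below the threshold and 1 reversed. Calls that an alternative gained are not in these numbers. Leaving out each library left 449 of 498 the same, 49 below the threshold and 0 reversed. TMM and DESeq2's size factors moved the median of all genes by at most 0.0535.

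Requiring an absolute log2 fold change of 1 as well left these gene counts. For the Dex change, GRwt/wt of run 1 went from 2159 to 311, GRD/D from 1838 to 152, GRD+L/D+L from 774 to 62, GRwt/wt of run 2 from 4901 to 695 and GRL/L from 2966 to 396. For differences of the Dex change, GRD/D went from 509 to 95, GRD+L/D+L from 501 to 93, GRko/ko from 1314 to 261, GRL/L from 286 to 19, GRD+L/D+L against GRD/D from 12 to 1 and run 2 against run 1 from 1098 to 160. For vehicle levels, GRD/D went from 1479 to 329, GRD+L/D+L from 4627 to 863, GRko/ko from 7071 to 2200, GRL/L from 1757 to 203 and run 2 against run 1 from 11208 to 3535. Of the 10 genes it left 1 (Ptgs2) for the Dex change in GRwt/wt of run 1 and in GRL/L, 0 in GRD/D and GRD+L/D+L, 1 for the difference in GRko/ko and between runs, 0 for those of GRD+L/D+L and GRL/L, and for vehicle levels 4 in GRko/ko, 5 between runs and 0 in the other mutants.

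The study's formula, run plus condition with GRwt/wt pooled over the runs, gave 5207 genes for the Dex change in GRwt/wt, and 1105, 1227, 2310 and 115 genes for its difference in GRD/D, GRD+L/D+L, GRko/ko and GRL/L, with 0 between GRD+L/D+L and GRD/D. Of the 10 genes it called 2 for the Dex change in GRD+L/D+L, 4 for the difference in GRD/D and 0 for that in GRL/L, where Ptgs2 reversed to -0.044. The cause was not tested. For the Dex change in GRko/ko, DESeq2 called 1 gene and the fit without a filter 110. For GRD+L/D+L against GRD/D, DESeq2 called 40, its size factors 0, no filter 87, run 1 alone 2, the replicate block 2 and the fit without GRko/ko 0 genes, and 2 of the 10 were called by DESeq2 and without a filter. For the difference in GRD/D, DESeq2, no filter and the replicate block each called 1, Anxa1. At least 10 counts in every library kept 7 of the 10 genes, and called 2 for vehicle levels in GRL/L and 5 between runs.

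Without single libraries the counts ranged from 1139 to 2020 genes for the Dex change in GRD/D, 0 to 6 in GRko/ko, 190 to 332 for the difference in GRL/L, 0 to 21 for GRD+L/D+L against GRD/D, and 933 to 2199 for vehicle levels in GRD/D. Of the 10 genes they ranged from 0 to 1 for the difference in GRD/D, 1 to 2 in GRD+L/D+L, 2 to 4 in GRL/L, 0 to 1 for GRD+L/D+L against GRD/D and 1 to 4 for vehicle levels in GRL/L. A replicate block, with a term for each numbered culture, gave 2021 genes for the Dex change in GRwt/wt of run 1 and 2881 in GRL/L. For vehicle levels, with a term for each number in run 1, it called 8 of the 10 genes in GRko/ko, adding Ptgds (adjusted p = 0.0359). With Anxa1 in the difference of GRD/D, these were the calls on the 10 genes that it changed. No paired analysis was possible for vehicle levels of GRL/L or between runs because these groups share fewer than 2 numbers.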

Other observations

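Ptgs2 and Pla2g4a are neighbours on chromosome 1, and antisense genes near Ptgs2 were counted too. Ptgs2os2 fell with Dex by 1.19 ± 0.11 in GRwt/wt of run 1, 1.04 ± 0.11 in GRD/D, 0.62 ± 0.11 in GRD+L/D+L, 1.99 ± 0.25 in GRwt/wt of run 2 and 1.02 ± 0.25 in GRL/L, and changed by 0.28 ± 0.16 in GRko/ko, which was not called. Ptgs2os, which lies between the 2 genes, fell by 0.93 ± 0.25 in GRwt/wt of run 1, 1.78 ± 0.45 in run 2 and 1.19 ± 0.40 in GRL/L. Its change was -0.50 ± 0.22 in GRD/D and -0.51 ± 0.20 in GRD+L/D+L, neither of them called. No annotated gene shares exon bases with Ptgs2. The next genes did not all move the same way. Prg4, the gene of lubricin, rose by 1.91 ± 0.17 in GRwt/wt of run 2 and 0.52 ± 0.15 in GRL/L, and Hmcn1, a hemicentin gene, rose by 0.54 ± 0.12 in GRwt/wt of run 1, 0.44 ± 0.10 in run 2 and 0.49 ± 0.10 in GRL/L. Tpr fell by 0.18 ± 0.06 in GRwt/wt of run 1 and 0.24 ± 0.06 in GRD/D. Gm9687, at a mean of 0.267 CPM, fell by 2.57 ± 0.81 in GRwt/wt of run 1, and Odr4 was not called in any genotype.

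Over all 36 libraries, Inhba and Adam19 had the profiles most like that of Ptgs2 (Pearson's r of 0.997 and 0.994 on log2 CPM), Tmem200a and Ttc39b that of Pla2g4a (0.982 and 0.975), Samd5 and Lactb that of Ptger4 (0.931 and 0.904), and Adm and Wee1 that of Anxa1 (0.926 and 0.926). The libraries share runs, genotypes and treatments, and these values are descriptions.

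Of the prostanoid synthesis and leukotriene lists, Hpgds, Tbxas1 and Alox5ap were called in all 3 mutants of run 1 without Dex, higher in GRD/D and GRko/ko and lower in GRD+L/D+L, and are named after their values were seen. Hpgds, the haematopoietic prostaglandin D synthase, had 1.96 ± 1.03 CPM in GRwt/wt of run 1, 5.71 ± 0.430 in GRD/D, 0.109 ± 0.0356 in GRD+L/D+L and 22.6 ± 1.02 in GRko/ko. Tbxas1, the thromboxane synthase, had 1.57 ± 0.420, 3.56 ± 0.521, 0.686 ± 0.298 and 16.3 ± 0.353 CPM in the same order. Alox5ap, the activator of 5-lipoxygenase, had 2.02 ± 0.799, 6.43 ± 0.478, 0.306 ± 0.0956 and 43.2 ± 1.49. Alox5, the 5-lipoxygenase itself, had 0.932 ± 0.385, 2.51 ± 0.291, 1.30 ± 0.187 and 6.62 ± 0.604, and was higher in GRD/D and GRko/ko but not called in GRD+L/D+L (0.48 ± 0.35, adjusted p = 0.320). The 12 macrophage markers summed to 260.1, 759, 38.4 and 3244 CPM in these groups, and their part in the levels was not tested.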
